A study of Bos taurus with 60 samples.

Results

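ALOX15 and PTGES, a lipoxygenase and a prostaglandin E synthase, were followed through drying off in the mammary gland of dairy cows. The 2 genes were found among 25223 counted loci by pairing their symbols with loci in the study's supplementary tables: ALOX15 was locus XLOC_009085 (ENSBTAG00000011990) and PTGES was locus XLOC_003118 (ENSBTAG00000019453), each with 1 gene identifier. They were chosen by their measured changes between days in these same libraries, so those courses are given below as a description, with no test. The differences between treatments and the relations between cows within a day rest on other contrasts and were tested.

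In all, 12 multiparous Holstein cows were dried off 46 d before expected calving and biopsied 3 d before dry-off (D-3, in milk) and on D3, D7, D14 and D25 after it, which gave 60 RNA-Seq libraries. From dry-off on, 6 cows had shade, fans and soakers in a pen of their own (cooled, CL: cows 7965, 8060, 8564, 8603, 8647 and 8686). The other 6 had shade alone in a separate pen (heat-stressed, HT: cows 8314, 8513, 8541, 8660, 8668 and 8713), so that treatment and pen cannot be told apart. The D-3 biopsies of both groups preceded the treatments. The cow was the replicate, with n = 6 per treatment and n = 12 per day.

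Arachidonic acid freed from membrane phospholipids feeds separate enzyme families. Cyclooxygenases turn it into prostaglandin H2, from which PTGES, the inducible microsomal prostaglandin E synthase, makes prostaglandin E2, a mediator of inflammation and vessel tone. Lipoxygenases add oxygen to it directly, and ALOX15 yields hydroxy fatty acids and precursors of the lipoxins that help inflammation to resolve. In the mammary gland, stopping milk removal sets off involution, in which milk secretion ceases and the tissue is remodelled before it redevelops for the next lactation. In whole biopsies, fewer cells of a type and less RNA per cell cannot be told apart.

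Libraries held 20525083 to 26183990 counts each. Before dry-off the cows fell into 2 sets by the share of counts on 3 milk protein genes (CSN1S1, CSN2 and LALBA): 40.2% to 49.8% in CL cows 7965, 8564 and 8647 and HT cows 8541 and 8713, and 0.19% to 8.03% in the other 7. Scaling factors of the trimmed mean of M-values (TMM) method were 0.30 to 0.43 in those 5 milk-rich libraries and 1.01 to 1.22 in the other 7. Each cow was placed in its set by a single biopsy. Some libraries bear on single values. The D14 library of CL cow 7965 stood apart, with a mean correlation of 0.83 with the other D14 libraries against 0.93 to 0.95 among the rest. The D14 and D25 libraries of HT cow 8513 correlated with the earlier libraries of HT cow 8660 (mean 0.51 of deviations from group means) rather than with its own (-0.10). For the step from D7 to D14, some values are therefore also given with these cows exchanged.

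ALOX15 was abundant before dry-off in the 5 milk-rich cows and low in every cow at D3. At D-3 the 5 cows had 7013, 5806, 6157, 7126 and 4922 ALOX15 counts (7965, 8564, 8647, 8541 and 8713). The other 7 cows had between 53 and 712, with HT cow 8668 highest. At D3 all 12 cows lay between 39 and 212 counts, so the 2 sets seen at D-3 had come together.

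In CPM, that is counts scaled to a common library size with TMM factors, ALOX15 at D-3 was 664, 582 and 725 in CL cows 7965, 8564 and 8647 and 772 and 659 in HT cows 8541 and 8713. It was 2.08 to 29.2 in the other 7 cows at D-3. At D3 the lowest, median and highest of the 12 cows were 1.47, 3.16 and 8.60 CPM. The 5 milk-rich libraries at D-3 thus stood above every D3 library, while the range of the other 7 overlapped that of D3. By D7 the values spread again, from 1.10 to 69.1 CPM with a median of 8.42, and HT cow 8513 was highest. They were 1.01 to 17.1 CPM at D14 (median 3.85) and 1.85 to 26.9 CPM at D25 (median 2.94), and no library after dry-off came near the 5 high values of D-3.

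Within cows, ALOX15 was lower at D3 than at D-3 in 11 of 12, with a mean change of -3.55 on the log2 CPM scale (SD 3.26). The 5 milk-rich cows changed by -7.84, -6.46, -6.77, -6.75 and -7.23 (7965, 8564, 8647, 8541 and 8713). The other 7 ranged from -3.17 in cow 8668 to 1.25 in CL cow 8686, the single cow in which ALOX15 was higher at D3. The 11 lower cows include CL cow 8603, which changed by only -0.04. In the fit over all 60 libraries the log2 fold change D3 vs. D-3 was -6.14 (SE 0.90), and -4.74 when counts were scaled by library size only.

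**Figure D1:**
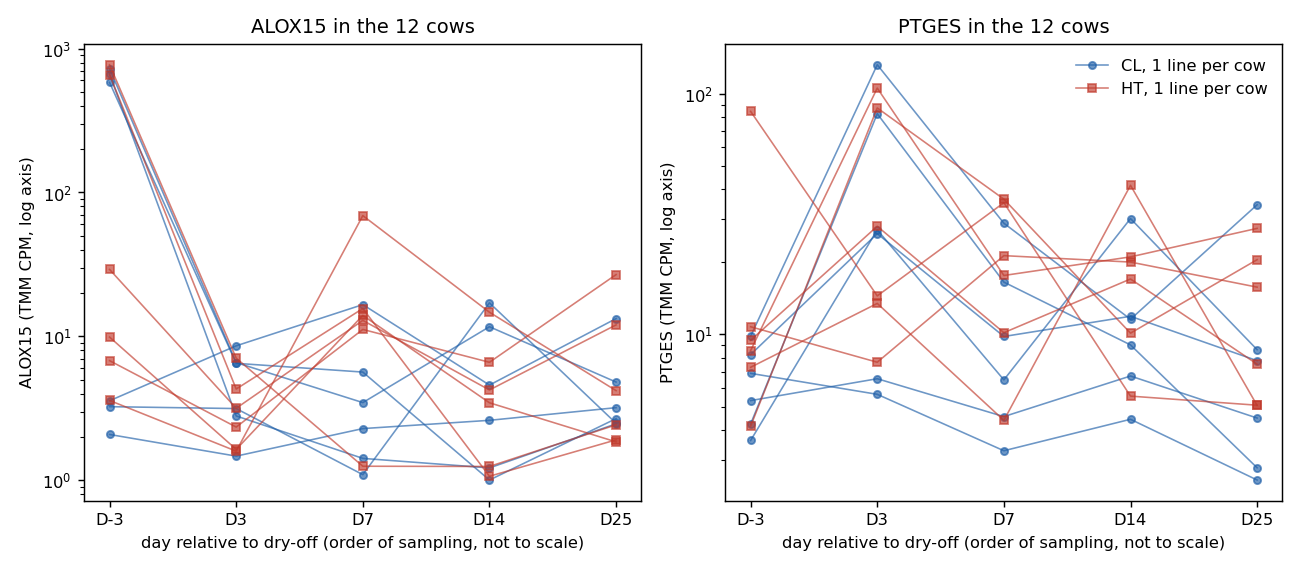
ALOX15 (left) and PTGES (right) in TMM-scaled CPM on a log axis, against sampling day in order (D-3 to D25, not to scale), with 1 line per cow (blue circles CL, red squares HT, 6 cows each). ALOX15 starts at 582 to 772 CPM in 5 cows and lies at or below 8.60 in all at D3, whereas PTGES at D3 reaches 82.5 to 132 CPM in 4 cows.

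PTGES took the other direction across dry-off in most cows and came down again afterwards. At D-3 it was 3.62 to 10.7 CPM in 11 cows and 84.3 in HT cow 8513 (2044 counts against 31 to 262). At D3 it was 132 and 82.5 CPM in CL cows 8564 and 8647 and 105 and 87.1 in HT cows 8541 and 8713. These 4 cows belonged to the 5 that were milk-rich before dry-off. The fifth, CL cow 7965, had 26.2 CPM at D3, within the range of 5.63 to 28.1 CPM of the other 7 cows.

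At later days the PTGES values drew together. They were 3.28 to 36.4 CPM at D7 (median 13.3), 4.43 to 41.6 at D14 (median 11.7) and 2.48 to 34.5 at D25 (median 7.64). No library from D7 on reached the 4 highest D3 values.

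PTGES was higher at D3 than at D-3 in 9 of 12 cows, by 1.66 on average (log2 CPM, SD 2.18), and the largest changes were 4.36 and 4.26 in cows 8713 and 8647. Cow 8513 changed by -2.54. PTGES was then lower at D7 than at D3 in 10 of 12 cows (mean -1.12, SD 1.31) and lower at D25 than at D3 in 11 of 12 (mean -1.64, SD 1.33). The fitted log2 fold change was 1.71 (SE 0.53) for D3 vs. D-3, 2.75 without cow 8513, and -1.46 (SE 0.53) for D7 vs. D3. At D25 the level was near that of D-3 (log2 fold change -0.21, SE 0.52), and 0.80 above it without cow 8513.

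The 2 courses were opposite across dry-off in most cows. Between D-3 and D3, 8 of 12 cows had lower ALOX15 with higher PTGES, 3 had both lower and 1 had both higher. These 8 include cow 8603, whose ALOX15 changed by only -0.04. Between D3 and D7, 5 cows had higher ALOX15 with lower PTGES, 5 had both lower and 2 had both higher. No cow had the reverse pairing in either step. The later steps were mixed. Between D7 and D14, 5 cows had lower ALOX15 with higher PTGES, 1 had the reverse, 4 had both lower and 2 had both higher. These 5 include cow 8541, whose ALOX15 changed by only -0.0049. They also include cow 8660. With cows 8513 and 8660 exchanged at D14, cow 8660 would instead have higher ALOX15 (14.0 to 14.7 CPM) with lower PTGES (10.2 to 5.53 CPM). Between D14 and D25, 5 cows had higher ALOX15 with lower PTGES, 4 had both lower, 3 had both higher and 0 had the reverse.

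Ordered by mean log2 CPM, ALOX15 ran from D-3 (5.38, SD 3.67) through D7 (2.67, SD 1.82), D25 (2.14, SD 1.23) and D14 (1.92, SD 1.45) to D3 (1.83, SD 0.88). PTGES ran from D3 (4.72, SD 1.62) through D14 (3.68, SD 0.97), D7 (3.61, SD 1.21) and D25 (3.09, SD 1.23) to D-3 (3.06, SD 1.17). Since the same cows were sampled on each day, neighbours in the order were compared within cows. The mean within-cow difference was smaller than its SD for every neighbouring pair of both genes. The widest gaps were 2.72 (SD 4.595) between D-3 and D7 for ALOX15, higher at D-3 in 7 of 12 cows, and 1.04 (SD 1.73) between D3 and D14 for PTGES, higher at D3 in 8 of 12. D14 vs. D7 and D25 vs. D14 had fitted log2 fold changes of -1.15 (SE 0.74) and 0.17 (SE 0.74) for ALOX15 and of -0.04 (SE 0.52) and -0.41 (SE 0.52) for PTGES.

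Cell type markers also moved across dry-off. At D3 vs. D-3, 4 of 15 tested markers rose and 5 fell (edgeR, FDR at most 0.05), against 6.40% of all loci called upward and 8.18% downward (14.6% in all). Markers could be paired with loci only through shortened tables that the study had ordered by its own p-values on these samples, so these counts are not independent evidence. The 3 milk protein genes fell, LALBA with a log2 fold change of -7.12 (SE 1.51, edgeR FDR = 0.00078). The adipocyte gene FABP4 and the endothelial receptor KDR also fell. At D-3, FABP4 was 341 to 557 CPM in the 5 milk-rich libraries and 43.0 to 139 in the other 7. The other paired adipocyte gene, ADIPOQ, did not pass the test at D3 vs. D-3 (-0.83, SE 0.45, edgeR FDR = 0.22). Luminal KRT7 and the myoepithelial genes KRT5 and ACTA2 rose, as did the skeletal muscle myosin MYH2. MYH2 had no count in 8 of the 60 libraries and was under 1 CPM in 44. Luminal KRT19 did not pass (0.53, SE 0.34, edgeR FDR = 0.32). Nor did the myoepithelial genes KRT17 (0.83, SE 0.31, FDR = 0.056) and MYH11 (0.24, SE 0.23, FDR = 0.55). Summed luminal keratins were 685 to 1247 CPM (CL) and 842 to 1813 (HT) at D-3, and 931 to 5263 and 731 to 3086 at D3. The macrophage gene AIF1, at 9.37 to 57.3 CPM in all libraries, did not pass the test (0.28, SE 0.19, FDR = 0.36). The neutrophil gene MPO was under 1 CPM in 54 libraries. Markers fixed for T cells, B cells, mast cells and eosinophils could not be paired with loci, so those cells were not measured here. At D7 vs. D3, 5 of the 15 fell (KRT7, KRT5, KRT17, ACTA2 and MYH2) and none rose, against 2.43% of all loci called downward and 3.05% in all. The part of these shifts in the courses of ALOX15 and PTGES was not tested.

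Whether heat stress changed either gene was asked on each day by edgeR's quasi-likelihood test over 14714 loci, with Benjamini-Hochberg adjustment, and by a two-sided exact permutation test over the 924 ways to split 12 cows. Neither gene was called on any day. No locus at all was called on any of the 5 days (0% called). At an unadjusted p under 0.05 there were 292 loci before dry-off (1.98%), and then 95 (0.646%), 679 (4.61%), 234 (1.59%) and 327 (2.22%) on the 4 later days in order. DESeq2 called 3 loci at D7, 1 at D25 and 0 on the other days, neither gene among them, and gave no p for PTGES at D-3.

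The widest gap for ALOX15 was at D7. The 6 CL cows had 1.10, 1.42, 2.29, 3.47, 5.65 and 16.6 CPM, and the 6 HT cows had 1.25, 11.2, 12.9, 14.0, 15.6 and 69.1. In HT, 5 cows lay above 5 of the CL cows, but cow 8686 (CL) and cow 8541 (HT) crossed over, so the groups overlapped. The log2 fold change HT vs. CL was 2.02 (SE 0.83) with an edgeR FDR = 0.96 (unadjusted p = 0.029). By the exact permutation test the difference in mean log2 CPM was 1.84, with p = 0.089 and an adjusted p = 0.58 over the 10 gene and day pairs. Leaving out HT cow 8513 lowered the fold change to 1.12. The exact permutation p fell to 0.017 without HT cow 8541 and to 0.035 without CL cow 8686, with adjusted p = 0.17 and 0.35.

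Milk protein genes also had positive fitted HT vs. CL values on that day. At D7 their share of counts was 0.063% to 1.96% in CL cows and 0.0067% to 14.5% in HT cows, and CSN1S1, CSN2 and LALBA had HT vs. CL log2 fold changes of 2.72, 2.72 and 3.50, none called (FDR = 0.96 each). Their part in the ALOX15 difference was not tested.

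On the other days ALOX15 did not pass the test either. The edgeR log2 fold change was -0.42 (SE 1.58) at D-3, -0.53 (SE 0.47) at D3, -0.29 (SE 0.78) at D14 and 0.77 (SE 0.70) at D25. The sign at D14 and D25 changed when single cows were left out.

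PTGES had a higher mean log2 CPM in HT than in CL cows on all 5 days, by 0.93 before dry-off and by 0.07, 0.92, 0.64 and 0.75 on the later days in order. None of these differences was called: exact permutation p was 0.15, 0.95, 0.19, 0.27 and 0.31, and the lowest adjusted p = 0.58. In the edgeR fit the D3 value had the opposite sign (-0.13, SE 0.81). The largest edgeR value was 1.72 (SE 0.68, edgeR FDR = 0.9999) at D-3, before treatment began, and it was 0.36 without cow 8513.

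The individual PTGES values overlapped on every day. At D7 the CL cows had 3.28, 4.55, 6.46, 9.79, 16.5 and 28.9 CPM and the HT cows 4.39, 10.2, 17.5, 21.2, 35.2 and 36.4. At D14 the medians were 10.3 (CL) and 18.5 (HT) CPM, with 4.43 to 30.2 and 5.53 to 41.6. At D25 the medians were 6.13 and 11.6 CPM, and the highest of all was CL cow 8564 at 34.5. Without that cow the D25 log2 fold change rose from 0.42 (SE 0.64) to 1.36 (edgeR FDR = 0.79), and without HT cow 8541 it was 0.10.

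**Figure D2:**
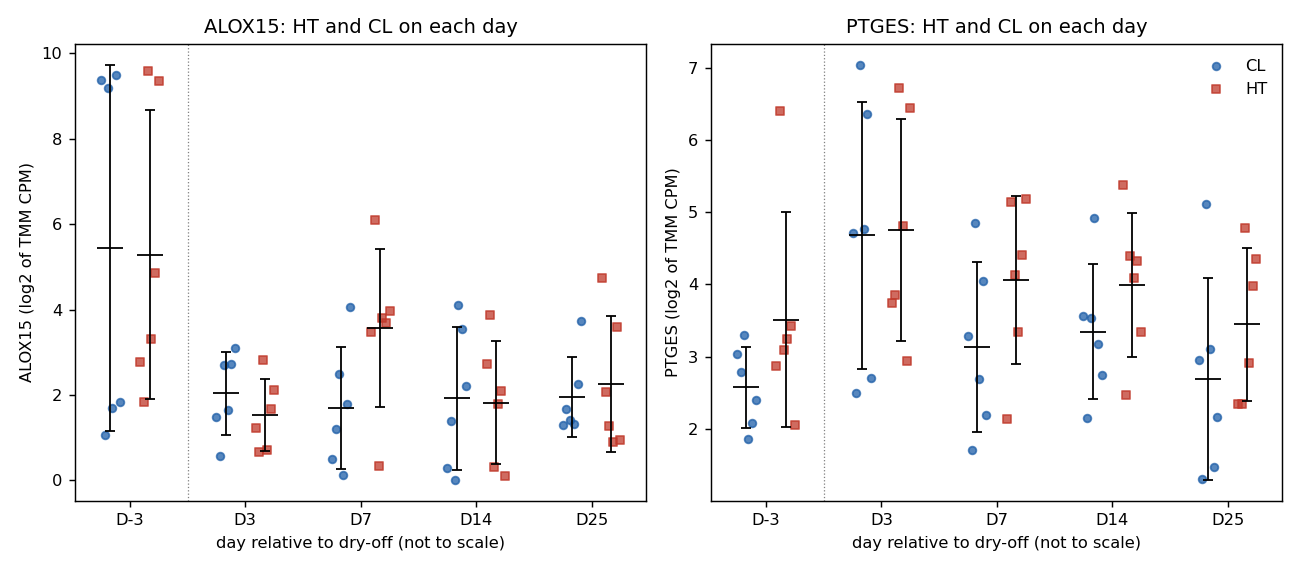
ALOX15 (left) and PTGES (right) as log2 of TMM-scaled CPM on each day, with 1 point per cow (blue circles CL, red squares HT, n = 6 each). Black bars show mean ± SD and the dotted line marks dry-off. The groups overlap on every day, and ALOX15 at D7 shows 5 HT cows at 11.2 to 69.1 CPM beside 5 CL cows at or below 5.65.

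The treatment by time interaction asks whether the 2 treatments had different courses. It was not called for ALOX15 or PTGES (edgeR FDR = 1 each), nor for any of the 14714 loci (0% called, and 0.571% at an unadjusted p under 0.05). Neither gene was called with the cow as a block or in DESeq2.

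Step by step within cows, ALOX15 between D3 and D7 changed by 2.00 (SD 2.53) in HT and -0.32 (SD 0.95) in CL cows on the log2 scale. It was higher at D7 in 5 of 6 HT cows and in 2 of 6 CL cows. The difference of 2.33 had an exact permutation p = 0.063 and an adjusted p = 0.42 over the 8 gene and step pairs. From D7 to D14 the HT mean was -1.72 (SD 1.30) and the CL mean 0.22 (SD 2.32), with an exact permutation p = 0.10 and an adjusted p = 0.42. With cows 8513 and 8660 exchanged, the exact permutation p was 0.15 and the adjusted p = 0.60. As labelled, HT cow 8541 stayed nearly level in that step (-0.0049) while the other 5 HT cows were lower. With the exchange, cow 8660 would be slightly higher at D14 (14.0 to 14.7 CPM). For PTGES the differences between treatments ran from -0.86 to 0.85 over the 4 steps, and the lowest exact permutation p was 0.31.

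Across cows on the same day, ALOX15 followed the share of counts on milk protein genes. Over 12 cows, Pearson's r between log2 milk protein share and log2 ALOX15 was 0.90 at D3 (Spearman's rho 0.93), 0.89 at D7 (0.84), 0.87 at D14 (0.83) and 0.74 at D25 (0.73). Permutation p-values for r, adjusted over the 15 relations examined, were 0.00083 at D3 and D7, 0.0021 at D14 and 0.017 at D25. Those for rho were 0.00075, 0.0058, 0.0058 and 0.028. Without the 2 cows farthest from the median share, r was 0.85, 0.94, 0.88 and 0.69. At D-3 the cows formed 2 sets, so r was computed in the 7 milk-poor cows alone, and it was 0.97 (rho 0.96, exact permutation adjusted p = 0.0022 and 0.010, and 0.83 without the 2 farthest). With library size only, that rho no longer passed (0.86, exact permutation adjusted p = 0.0595), while r did (0.95, adjusted p = 0.0067). Both measures come from the same libraries and share their depth.

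For PTGES the relation with the milk protein share passed at D3 by r and not by rho. There r was 0.70 (permutation p = 0.014, adjusted p = 0.034) and rho 0.66 (p = 0.024, adjusted p = 0.060), and r was 0.59 without the 2 cows farthest from the median. With library size only, rho passed as well (0.69, permutation adjusted p = 0.047). At D3 cows 8541, 8564, 8647 and 8713 had both the highest shares (3.66% to 7.45%) and the highest PTGES (82.5 to 132 CPM). The other cows had shares of 0.0098% to 1.01% and PTGES of 5.63 to 28.1 CPM, and r within them was not computed. The 2 cows left out above, 8060 and 8513, had the lowest shares, so that check kept the high cows. On the other days r was 0.08 to 0.21 and did not pass, with the lowest adjusted p = 0.77. ALOX15 and PTGES themselves had r of 0.50 at D3, 0.35 at D7, 0.09 at D14, -0.32 at D25 and 0.05 in the 7 milk-poor cows at D-3, none of which passed by permutation (lowest adjusted p = 0.22). Without the 2 cows farthest from the median ALOX15, these became 0.79, 0.06, 0.11, -0.15 and 0.05. The corresponding rho were 0.42, 0.36, 0.08, -0.50 and 0.68 (lowest adjusted p = 0.205). Although the 2 genes took opposite courses over dry-off, no opposite ranking of cows was detected within a day.

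**Figure D3:**
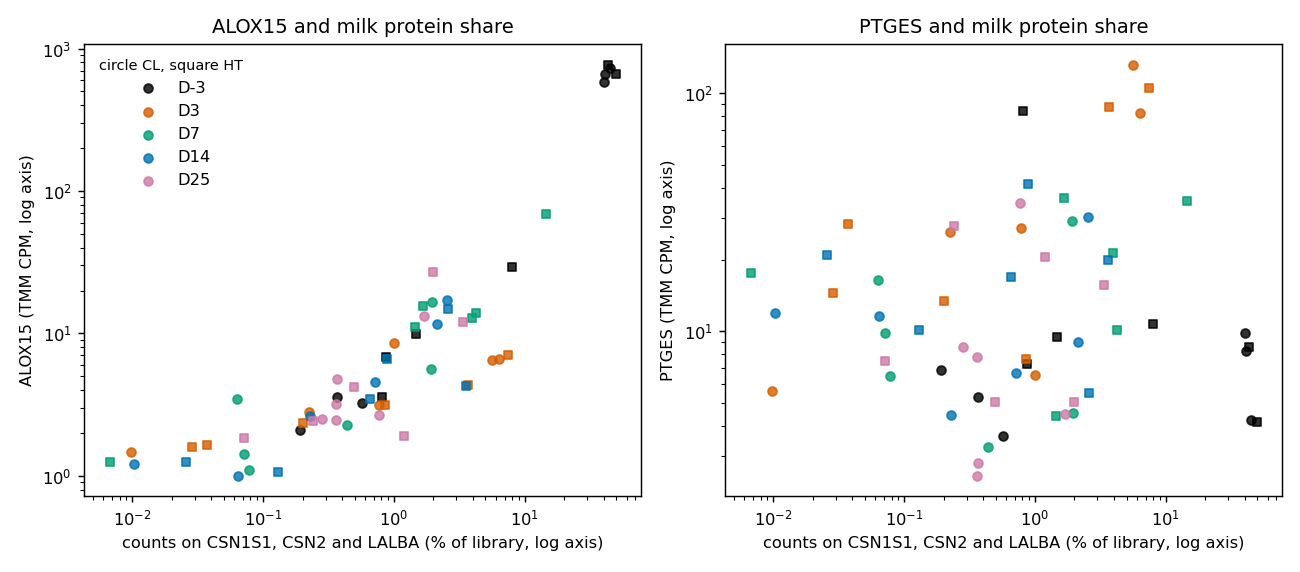
ALOX15 (left) and PTGES (right) in TMM-scaled CPM against the percentage of library counts on CSN1S1, CSN2 and LALBA, both on log axes, with 60 libraries coloured by day (circles CL, squares HT). ALOX15 climbs with the milk protein share on each day and 5 D-3 libraries sit apart at 40.2% to 49.8%, while 4 D3 libraries hold the highest D3 values of PTGES.

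The wider pathway was read through a list of 72 eicosanoid genes, of which 16 could be paired with tested loci. Beside ALOX15 and PTGES these were 14 genes on 13 loci, since GGT1 and GGT5 shared a locus. Pairing relied on shortened tables that the study had ordered by its own p-values on these samples, so a high count of calls is not independent evidence of a change in the pathway. PTGS2, PTGES2, PTGES3, ALOX5 and the prostaglandin E2 receptors PTGER1, PTGER2 and PTGER4 could not be paired and were not analysed here.

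At D3 vs. D-3, 6 of the 13 loci rose and 3 fell (edgeR, FDR at most 0.05), against 14.6% of all loci called, 6.40% upward and 8.18% downward. The median log2 fold change was 0.26 on the list and 0.0053 over all loci. At D7 vs. D3, 1 of the 13 rose and none fell, against 3.05% of all loci, with medians of -0.12 and -0.0054 (0.618% of all loci called upward and 2.43% downward). With the cow as a block, 914 in place of 449 loci were called in that step. At D7 vs. D-3, 3 of the 13 had fallen and none had risen (8.06% of all loci called, 1.34% upward and 6.72% downward). At D25 vs. D-3, 4 had fallen and none had risen (13.1% of all loci, 3.83% upward and 9.25% downward). With the cow as a block, 1881 in place of 1186 and 3022 in place of 1924 loci were called. In D14 vs. D7 and D25 vs. D14 none of the 13 was called in edgeR or DESeq2 (0% and 0.0612% of all loci), with 1 and 0 at an unadjusted p under 0.05 (1.65% and 3.64% of all loci). The 9 loci called in the later of these steps were 0 with the cow as a block.

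Among enzymes that release arachidonic acid, the secreted phospholipase PLA2G3 fell at D3 and rose again at D7. Its median over 12 cows was 1.65 CPM at D-3, 0.12 at D3 and 0.73 at D7. The log2 fold changes were -4.14 (SE 0.68, FDR = 3.5e-05) and 2.17 (SE 0.64, FDR = 0.047), and the D7 call was lost when any of cows 7965, 8060, 8314, 8541, 8564, 8603, 8647, 8660 and 8713 was left out (FDR = 0.068 to 0.13). PLA2G4A, the cytosolic phospholipase, had values of -0.03 (SE 0.12, FDR = 0.90) and 0.30 (SE 0.12, FDR = 0.17).

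PTGS1, the constitutive cyclooxygenase, was 2.84 to 13.7 CPM at D-3 and 4.91 to 21.5 at D3, without a call (0.26, SE 0.22, FDR = 0.48). Scaled by library size only, it was called at 0.68 (FDR = 0.037). At D7 vs. D3 it had -0.62 (SE 0.22, FDR = 0.10).

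HPGD, the dehydrogenase that inactivates prostaglandins, fell at D3 by 2.42 on the log2 scale (SE 0.69, FDR = 0.012). Its range was 0.58 to 131 CPM at D-3 and 0.53 to 11.3 at D3, so the days overlapped widely. The highest D-3 values, 131 and 61.5 CPM, were those of cows 8713 and 8564. The call was lost without cow 8713 (-1.91, FDR = 0.058) and with library size only (-1.21, FDR = 0.12). It was also lost with only the 24 libraries of the 2 days (-2.42, edgeR FDR = 0.062). PTGR2, which reduces prostaglandin metabolites further along, had -0.41 (SE 0.17, FDR = 0.085) and was called with the cow as a block (-0.40, FDR = 0.018).

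The prostaglandin E2 receptor PTGER3 was 1.84 to 7.72 CPM at D-3 and 1.70 to 10.97 at D3 (log2 fold change -0.02, SE 0.29, edgeR FDR = 0.98). CMKLR1, a receptor for chemerin and for a resolvin, rose by 0.82 (SE 0.22, FDR = 0.0075). Its call was lost with only the 24 libraries of the 2 days (edgeR FDR = 0.0505). The gamma-glutamyltransferase locus GGT1 and GGT5, enzymes that process leukotriene C4 as well as glutathione, fell by 1.68 on the log2 scale (SE 0.33, FDR = 0.00038), from a median of 449 to 152 CPM.

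The list also held 5 known inducers of each gene in other tissues, of which 2 each could be paired. All 4 of these rose at D3, against 6.40% of all loci called upward. They were paired through the tables that the study had ordered by its p-values on these samples, so this count is not independent evidence. IL4, IL13, IL4R, IL1B, TNF and EGR1 could not be paired and were not analysed here. Of the pair tied to ALOX15, IL13RA1, a receptor chain for interleukins 4 and 13, had 0.85 (SE 0.19, FDR = 0.0012) and STAT6, which carries their signal, had 0.44 (SE 0.12, FDR = 0.0082). ALOX15 was lower at D3 while both rose, and a link between these changes was not tested. Of the pair tied to PTGES, the interleukin 1 receptor IL1R1 had 0.58 (SE 0.20, FDR = 0.043) and the transcription factor NFKB1 had 0.33 (SE 0.11, FDR = 0.025). The IL1R1 call was lost without any of cows 7965, 8314, 8541, 8564, 8603, 8647, 8660 and 8713 (FDR = 0.066 to 0.11). That of NFKB1 was lost without any of cows 7965, 8541, 8603, 8647 and 8713 (FDR = 0.056 to 0.11). With only the 24 libraries of the 2 days, the calls of STAT6, IL1R1 and NFKB1 were lost (edgeR FDR = 0.058, 0.099 and 0.11).

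**Figure D4:**
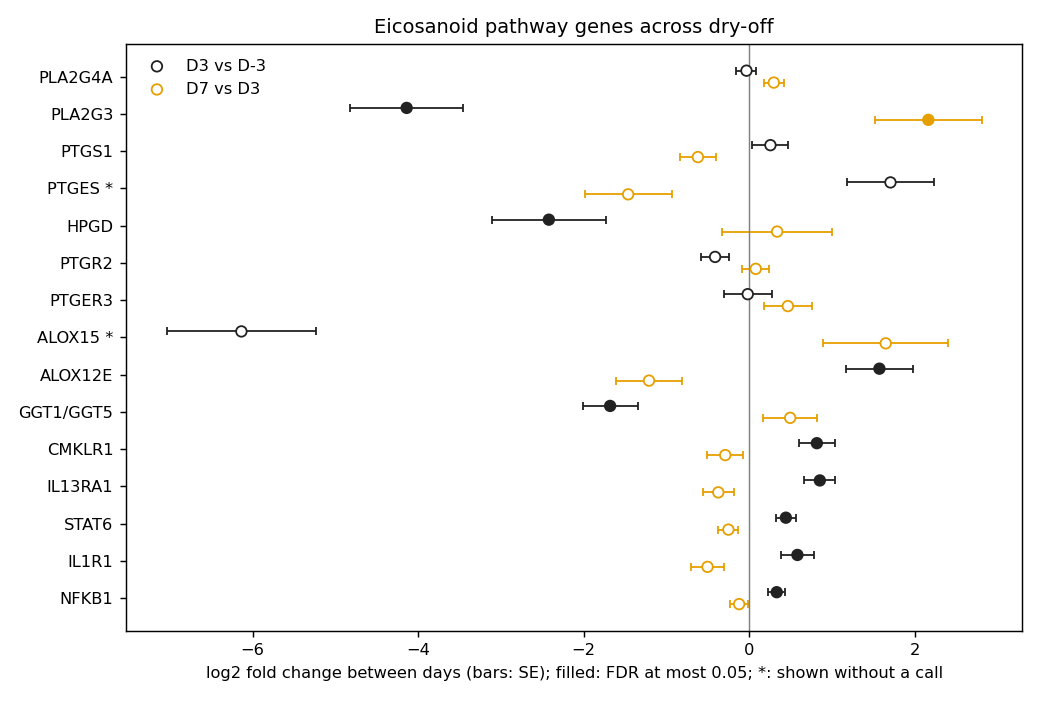
Log2 fold changes with SE for 15 eicosanoid pathway loci at D3 vs. D-3 (black) and D7 vs. D3 (orange), from the fit over 60 libraries. Filled points passed FDR at most 0.05, and ALOX15 and PTGES are shown without a call. PLA2G3 and HPGD lie with ALOX15 on the left at D3, and ALOX12E lies with PTGES on the right.

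None of the 13 loci was called between HT and CL on any day in edgeR or DESeq2, with 6 cows per group. At an unadjusted p under 0.05 there was 1, PLA2G3 at D25 (log2 fold change 1.41, SE 0.64), against 2.22% of all loci on that day. PLA2G3 had 1.61 (SE 0.75) at D14. Its level was low, with medians of 0.41 (CL) and 0.79 (HT) CPM at D25 and of 0.32 and 0.60 CPM at D14. HPGD had 1.29 (SE 0.83) at D7. At D7, 12 of the 13 had a positive HT vs. CL value, against 50.5% of all loci, and none had an unadjusted p under 0.05. The median was 0.24 against 0.0029 over all loci. At D-3, D3, D14 and D25, 8, 7, 11 and 9 of the 13 were positive, against 51.05%, 46.38%, 50.46% and 51.26% of all loci. The loci of a day come from the same 12 libraries, so their signs are not independent.

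ALOX12E, the epidermal-type 12-lipoxygenase, is the next annotated gene to ALOX15 on chromosome 19 in the RefSeq gene order of a later assembly, with ALOX12 close by. PTGES lies on chromosome 11, before TOR1B. At D3 ALOX12E took the other direction from ALOX15. It rose by 1.57 on the log2 scale (SE 0.40, FDR = 0.0049), from 2.59 to 17.99 CPM (median 7.92) at D-3 to 5.59 to 61.5 CPM (median 28.2) at D3. At D7 it was 5.86 to 26.3 CPM (-1.21, SE 0.40, FDR = 0.076), a change called by DESeq2 (FDR = 0.037). In the 5 milk-rich libraries at D-3, ALOX12E was 2.59 to 8.11 CPM. The study used uniquely mapped reads alone, so reads that fit close lipoxygenase copies equally would be missing from these counts. Both values carry that uncertainty.

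**Figure D5:**
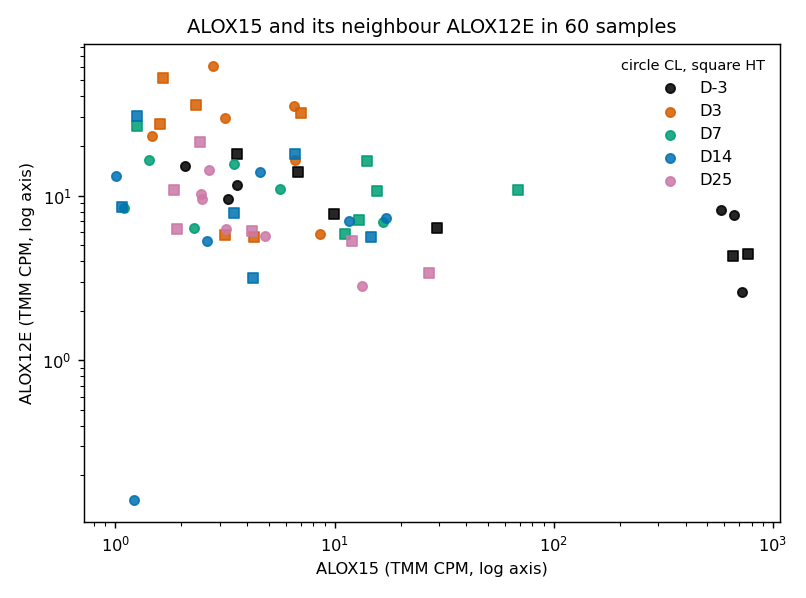
ALOX12E against ALOX15 in TMM-scaled CPM, both on log axes, in 60 libraries coloured by day (circles CL, squares HT). D3 libraries hold the highest ALOX12E values (up to 61.5 CPM) with ALOX15 at or below 8.60, and the 5 libraries at the right are those of milk-rich cows at D-3. The lowest point is the D14 library of cow 7965.

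That D14 library, from CL cow 7965, had low keratin levels. Its keratins KRT7, KRT19, KRT5 and KRT17 were at 2.77, 3.29, 6.43 and 1.22 CPM, against lowest values of 188, 230, 119 and 61.8 in the other 11 D14 libraries, and the fibroblast gene DCN was at 5277 CPM against at most 1570. ALOX12E was 0.14 CPM there and 3.15 or more in the other 11. ALOX15 (1.22 CPM) was near the low end of their range of 1.01 to 17.1. PTGES (11.9 CPM), PTGS1 (7.32) and HPGD (7.13) lay inside the ranges of the other libraries, 4.43 to 41.6, 2.98 to 8.70 and 0.51 to 11.1 CPM. It is a single library. Without it the D14 HT vs. CL log2 fold changes were -0.50 for ALOX15 and 0.62 for PTGES.

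Of 3006 loci with a symbol, those most like ALOX15 over the 60 libraries by Pearson's r of log2 CPM were ABCG2 (0.94), TECTB (0.93) and SCD (0.93). ABCG2 is a transporter that secretes compounds into milk, TECTB encodes a tectorin and SCD is the stearoyl-CoA desaturase of milk fat synthesis. Over the 48 libraries after dry-off these values were 0.82, 0.77 and 0.76. Most like PTGES were MGLL (0.89), PPFIBP2 (0.89) and FNDC4 (0.87), at 0.92, 0.89 and 0.91 after dry-off. MGLL is the monoacylglycerol lipase, PPFIBP2 a liprin and FNDC4 a fibronectin domain protein. Symbols came from the shortened tables that the study had ordered by its own p-values on these samples. The 3006 loci are therefore a selected part of the 14714 tested. The 60 points share cows, days and library scaling, so these values describe likeness and carry no p.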

How the data were processed

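Poly(A) RNA of 60 biopsies was sequenced as single reads of 150 bases. Per the labels and the study's methods, the authors trimmed reads with Trim Galore 0.4.1, aligned them with TopHat 2.0.13, assembled loci with Cufflinks 2.2.1 and counted reads with HTSeq. The deposited files hold these raw counts per locus, with no normalization. The build is named differently in the sources, so no coordinates are given. All 60 libraries were combined in a single pool, which was sequenced in 5 runs.

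Symbols came from shortened supplementary tables (3033 loci). Both genes, the lists and the tests were chosen with earlier results of these data known. A locus was kept where 6 or more of the 60 libraries reached 1 CPM (14714 loci). edgeR 4.0.16 (R 4.3.3) gave TMM factors and quasi-likelihood F-tests: 12 libraries a day for HT vs. CL, all 60 for time and interaction, Benjamini-Hochberg adjusted, call at FDR at most 0.05. The main time and interaction fits had no cow term. The SE of a fold change was its absolute log2 value divided by the square root of F. Exact permutation tests and correlations used log2 CPM with a prior count of 2 (100000 resamples for 12 cows, all orders for 7). Fits were tested on simulated data.

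Named genes were ALOX15, PTGES, the eicosanoid list by call or set role, and the 3 loci most like each. Alternatives were RLE factors, library size only, TMM without milk protein genes, 2 other filters, DESeq2 1.42.0, tagwise dispersions, other sample sets, and each cow left out. The pairing comes from the cow numbers in the labels: libraries of a cow on different days had a mean correlation of 0.29 of deviations from group means (120 pairs), against -0.03 between cows. No 2 libraries agreed within sampling noise (lowest chi-square per degree of freedom 12.9 over 1770 pairs). Precision is limited by 6 cows per group.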

Additional observations from a re-analysis of the deposited data

Results flagged for a closer look

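PTGES in HT cow 8513 at D-3 stood apart from the other 5 HT cows of that day. The gap to the next cow took up 0.69 of the range of the group on the log2 CPM scale, above Dixon's 95% limit for 6 samples. The value was 84.3 CPM, against 4.15 to 10.7 CPM in the other 5. The biopsy preceded the heat treatment. In that library ALOX15 was 3.59 CPM and the milk protein share 0.81%. Of the 20 groups examined for ALOX15 and PTGES this was the single one past the limit, and chance alone passes about 1 in 20.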

How the results depend on the processing

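No HT vs. CL value, step difference or interaction of ALOX15 or PTGES passed the threshold under any of 417 alternatives of 30 results, and the lowest adjusted p was 0.17. Leaving out 1 cow at a time changed the sign of uncalled edgeR values: ALOX15 ran from -0.95 to 0.31 at D14 and from -0.11 to 1.39 at D25, and PTGES from -0.63 to 0.55 at D3. The corresponding exact-test differences ran from -1.03 to 0.64 for ALOX15 at D-3, from -0.51 to 0.32 at D14 and from -0.19 to 0.65 at D25, and from -0.37 to 0.54 for PTGES at D3. The correlation of ALOX15 with PTGES at D-3 was -0.063 with library size only, and it passed under neither scaling. No r changed its call with library size only, whereas rho with the milk protein share lost its call for ALOX15 at D-3 (adjusted p = 0.0595) and gained it for PTGES at D3 (0.047).

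Of the 13 other pathway loci, 4 in place of 9 were called at D3 vs. D-3 with only the 24 libraries of the 2 days, which estimates the spread from fewer libraries. At D7 vs. D3 the count of 1 became 0 with library size only, with every locus counted or with the stricter filter. It became 2 with DESeq2, with tagwise dispersions, without the D14 library of cow 7965, or with cows 8513 and 8660 exchanged in the block. At D7 vs. D-3 the 3 became 0 with library size only and with the 24 libraries. Leaving out a cow gave 0 to 1 at D7 vs. D3, 2 to 5 at D25 vs. D-3 and 0 to 5 at D7 vs. D-3. With the cow as a replicate block, 10 were called at D3 vs. D-3 and 1 at D7 vs. D3, and apart from PTGR2 and, with the exchange, IL1R1 at D7, the pairing gained or lost no call among the named loci at these 2 steps. Over all loci, calls ranged from 831 to 3268 at D3 vs. D-3 and from 31 to 1036 at D7 vs. D3. They ranged from 0 to 2034 at D7 vs. D-3 and from 789 to 6037 at D25 vs. D-3, so calls over all loci shifted as well. The cause of these shifts was not tested where none is named. Library size only was added for the exact tests after the data were seen.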
